A study of Mus musculus with 40 samples.

Results

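Kidney and ovary of the same kind of mouse were compared in their transcriptional response to acute loss of Mdm2. The comparison used 16 of the series' 40 RNA-seq libraries, and its members were taken by their tissue and genotype labels. There were 5 libraries of FMTg kidney, 3 of Tg kidney, 5 of FMTg ovary and 3 of Tg ovary. FMTg mice were Mdm2FM/- Cag-CreERTg and lose Mdm2. Tg mice were Mdm2+/- Cag-CreERTg and retain it. All were C57BL/6j mice of 60 days, sampled 24 hours after p53 was activated. Both genotypes carry a null Mdm2 allele and the Cre transgene, which the broadly active CAG promoter drives in most cell types. The Tg mice are therefore heterozygous for Mdm2 and not wild type. Each library was 1 tissue of 1 mouse, and the 16 libraries came from 10 mice. The 3 Tg mice gave both tissues, as did 3 FMTg mice (replicates 1 to 3 of each tissue). The FMTg replicates 4 and 5 were 2 mice for kidney and 2 other mice for ovary.

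Mdm2 is the ubiquitin ligase that binds p53, blocks its transcriptional activity and sends it for degradation, and Mdm2 is itself a p53 target, which closes a feedback loop. When Mdm2 is lost, p53 accumulates and switches on genes for cell-cycle arrest, apoptosis, DNA repair, secreted signals and its own inhibitors. The kidney is made up largely of resting tubule epithelium, whereas the ovary holds dividing granulosa cells, oocytes, stroma and steroid-producing luteal cells. Tissues of the mouse are known to differ in how they respond to p53 activation.

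In what follows, a response is the FMTg mean minus the Tg mean of a gene in 1 tissue, in log2 units of the deposited variance-stabilised values. The kidney-minus-ovary difference is the kidney response minus the ovary response. A gene was called when its Benjamini-Hochberg adjusted p from limma was below 0.05 over the 16258 genes tested. Levels are given as normalised reads, that is reads divided by the size factor of their library. In bulk tissue, fewer cells of a type and less RNA per cell cannot be told apart.

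The kidney libraries held 14611826 to 27942108 reads and the ovary libraries 8974235 to 22969414. The markers fitted both labels. Granulosa gene Fshr averaged 0.178 normalised reads in FMTg kidney, 0 in Tg kidney, 58.0 in FMTg ovary and 45.3 in Tg ovary, and the proximal tubule transporter Slc34a1 averaged 52191, 31254, 332 and 317 in the same groups. Some libraries stood apart. Pancreatic acinar genes took 26.8% of the reads of Tg Ovary replicate 1, 5.78% of FMTg Ovary replicate 3 and 2.47% of FMTg Ovary replicate 2. In the other ovary libraries that share was at most 0.522%, and in kidney it was highest in FMTg Kidney replicate 3 at 2.11%. FMTg Kidney replicates 4 and 5 held 6907 and 4976 reads of 4 Y-linked genes, while no other library of the 16 held more than 6, so these 2 kidneys came from mice with a Y chromosome. Within each tissue, genes with reads were fewest in FMTg replicates 4 and 5, at 15699 and 15678 in kidney and 16452 and 15899 in ovary. The other kidneys had 16370 to 16489 and the other ovaries 16961 to 17330. No Tg library was in this set, and its part in the responses was not tested. Results below are also given without the 2 kidney libraries with Y-linked reads or the 3 ovary libraries richest in acinar reads. The fit of the 6 mice that gave both tissues leaves out FMTg replicates 4 and 5 of both tissues.

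The response was stronger in kidney for 9 genes and stronger in ovary for none. These 9 were 0.0554% of the genes tested. At an unadjusted p below 0.05 there were 704. The 9 genes were Plk2, Gtse1, Psrc1, Inka2, Tnfrsf10b, Eda2r, Trp53inp1, Mgmt and the predicted gene 1700007K13Rik. The 5 lists of known p53 targets held 62 of the 16258 genes tested and 6 of the 9. Of these 6, 3 stand on the arrest list, 2 on the apoptosis list and 1 on the feedback list. The lists were put together with results of these data known, so the count is a description. All 9 rose in kidney, where 0.449% of the genes tested rose. In ovary, where 0.178% rose, 4 of the 9 did so (Gtse1, Eda2r, Inka2 and Psrc1), and the fitted response of the other 5 was above 0 without passing the test. In Tg mice all 9 genes had a lower mean level in kidney than in ovary, whereas in FMTg mice 8 of the 9 had a higher mean in kidney. Of all genes tested, 57.1% had a higher Tg mean in ovary. The choice of genes by their difference itself moves these counts, so they are given as a description.

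The 12 arrest targets tested gave 3 of the 9 calls. Plk2 is a polo-like kinase of the stress response and lies on chromosome 13 (GRCm38, 110395046 to 110400844). Plk2 had 1053, 1364, 1031, 1291 and 1216 normalised reads in FMTg kidneys, against 226, 250 and 227 in Tg kidneys. In ovary it had 616, 847, 981, 566 and 620 in FMTg mice, against 550, 664 and 582 in Tg mice. The kidney groups were far apart, with every FMTg kidney above every library of the other 3 groups. The ovary groups overlapped. The kidney response of Plk2 was 2.31 ± 0.17 (SE) and its ovary response 0.25 ± 0.17, so the difference was 2.06 ± 0.24 (limma, adjusted p = 0.00429).

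Gtse1 encodes a microtubule-associated protein of the later cell cycle that also binds p53 and lowers its activity. It lies on chromosome 15 (85859745 to 85876573). Gtse1 had 692, 1072, 739, 1080 and 1060 normalised reads in FMTg kidneys, against 16.5, 21.4 and 40.9 in Tg kidneys. In ovary there were 255, 367, 519, 299 and 217 in FMTg mice, against 75.3, 90.4 and 69.4 in Tg mice. The groups did not overlap in either tissue, and the 4 groups ran in the order FMTg kidney, FMTg ovary, Tg ovary and Tg kidney with no overlap between neighbours. The ratio of mean normalised reads was 35.3 in kidney and 4.23 in ovary, and the log2 difference was 2.97 ± 0.40 (limma, adjusted p = 0.0122).

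Psrc1, a spindle and microtubule protein on chromosome 3 (108383839 to 108388231), had 360, 552, 412, 544 and 523 normalised reads in FMTg kidneys, against 35.3, 23.8 and 27.5 in Tg kidneys. Ovaries of FMTg mice had 204, 276, 320, 175 and 172, against 61.5, 72 and 57.7 in those of Tg mice. Psrc1 therefore followed the same order of groups as Gtse1. Its responses were 3.79 ± 0.22 in kidney and 1.72 ± 0.22 in ovary, both called, and they differed by 2.07 ± 0.32 (limma, adjusted p = 0.0199).

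Receptors of the tumour necrosis factor family were 2 of the 9. Tnfrsf10b, the mouse receptor for the death ligand TRAIL, is on chromosome 14 (69767472 to 69784411). It had 292, 336, 344, 359 and 364 normalised reads in FMTg kidneys, against 62, 52.3 and 69.3 in Tg kidneys. Its ovary levels were 231, 299, 376, 226 and 201 in FMTg mice, against 167, 203 and 203 in Tg mice, where the groups overlapped. The difference was 1.93 ± 0.26 (limma, adjusted p = 0.0122), made up of a kidney response of 2.36 and an ovary response of 0.44.

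Eda2r, the receptor for ectodysplasin A2, lies on the X chromosome (97333840 to 97377216). It had 659, 1028, 717, 884 and 825 normalised reads in FMTg kidneys, against 96.5, 72.9 and 85.8 in Tg kidneys. The FMTg ovaries had 633, 1036, 993, 808 and 833, against 285, 318 and 295 in the Tg ovaries. FMTg levels of the 2 tissues overlapped throughout, and the Tg levels did not. Eda2r was the exception among the 9 in that its FMTg mean was not higher in kidney, with a gap of -0.06 on the log2 scale, while its Tg gap was -1.75. The difference was 1.69 ± 0.24 (limma, adjusted p = 0.0161).

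Trp53inp1, a nuclear cofactor of p53 in apoptosis and autophagy, lies on chromosome 4 (11156431 to 11174379). It had 4617, 6575, 5377, 7688 and 6082 normalised reads in FMTg kidneys, against 1107, 1075 and 1059 in Tg kidneys. In ovary it had 3639, 6575, 5179, 3871 and 4056 in FMTg mice, against 2204, 2923 and 2510 in Tg mice. The ovary groups were apart, although the ovary response of 0.85 ± 0.19 was not called (limma, adjusted p = 0.0885). The difference was 1.62 ± 0.27 (limma, adjusted p = 0.0467), the one nearest the threshold.

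Of the 3 called genes outside the p53 lists, Inka2 encodes an inhibitor of the kinase Pak4 (chromosome 3, 105704599 to 105720842). It had 485, 720, 573, 647 and 651 normalised reads in FMTg kidneys, against 51, 65 and 46.4 in Tg kidneys. Ovaries of FMTg mice had 237, 427, 344, 309 and 256, against 134, 88.8 and 164 in those of Tg mice. Inka2 rose in both tissues, and the responses of 3.37 and 1.26 differed by 2.11 ± 0.31 (limma, adjusted p = 0.0179).

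Mgmt, the enzyme that removes alkyl groups from guanine in DNA, was the only called gene whose Tg means lay within 1 log2 unit between tissues (chromosome 7, 136894614 to 137130266). It had 387, 490, 394, 673 and 601 normalised reads in FMTg kidneys, against 104, 95.1 and 102 in Tg kidneys. Its ovary levels were 146, 201, 195, 154 and 184 in FMTg mice, against 147, 99.2 and 121 in Tg mice. The ovary groups overlapped by a single library, and FMTg kidneys stood above all others. The difference was 1.73 ± 0.28 (limma, adjusted p = 0.0309).

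The predicted gene 1700007K13Rik (chromosome 2, 28462001 to 28466332) lay outside the rule for named genes and was picked after its values were seen. It had 157, 211, 160, 355 and 281 normalised reads in FMTg kidneys, against 7.06, 5.55 and 3.15 in Tg kidneys. The FMTg ovaries had 150, 151, 155, 222 and 239, against 45.2, 58.4 and 146 in the Tg ovaries. The Tg kidneys stood far below the other 3 groups, and the ovary groups were apart by a small margin. The difference was 3.23 ± 0.49 (limma, adjusted p = 0.0199).

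**Figure D1:**
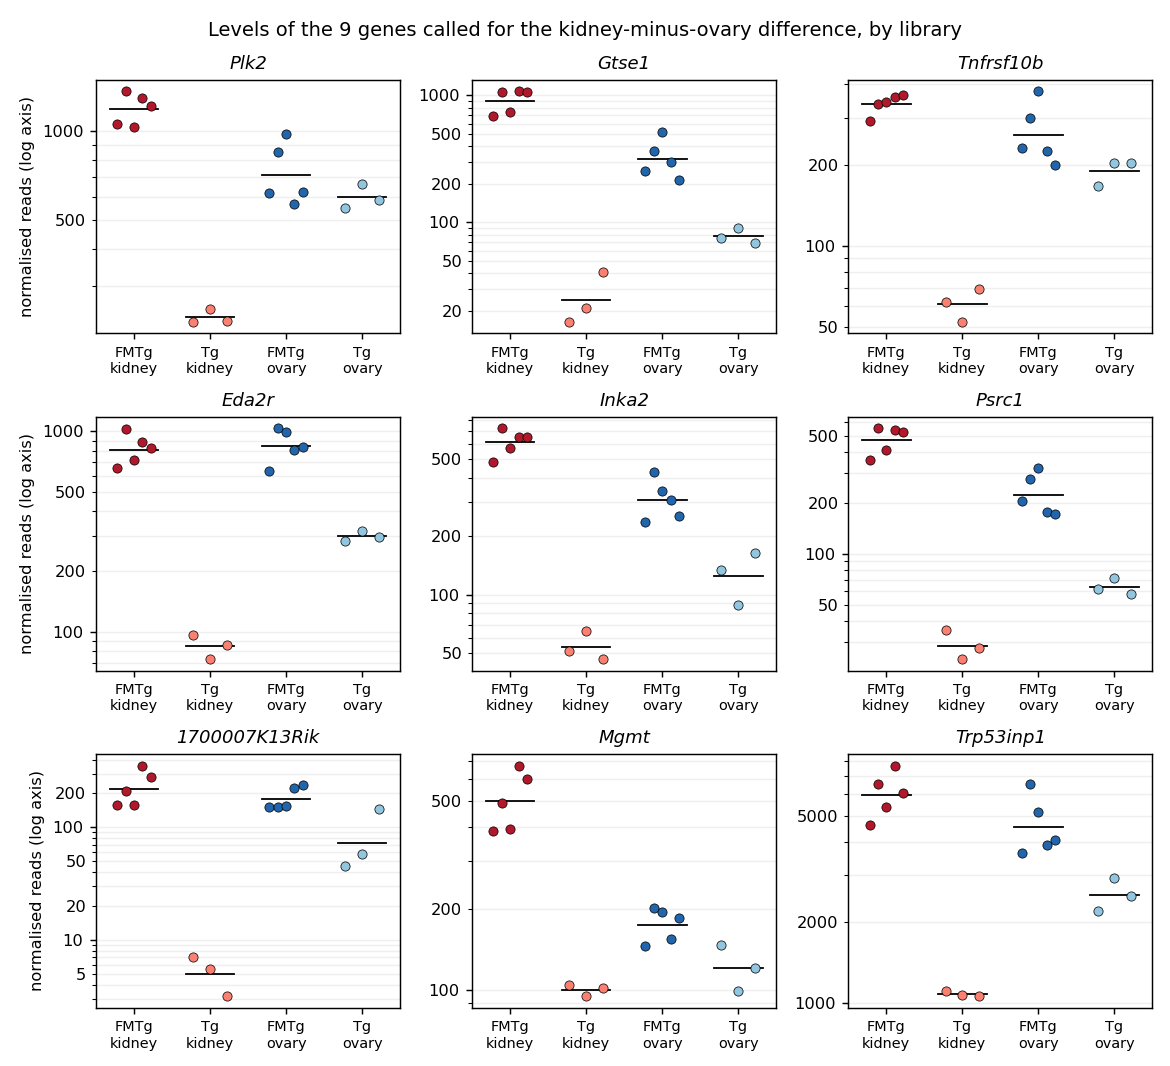
Normalised reads (log axis) of the 9 genes called for the kidney-minus-ovary difference, with 1 point per library (5 FMTg and 3 Tg per tissue) and bars at the geometric mean of each group. In every panel the Tg kidney libraries are lowest on average and the 5 FMTg kidney libraries lie above all 3 Tg kidney libraries.

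Responses were also taken on the linear scale. As a description of the chosen genes, the mean rise in kidney exceeded that in ovary for 9 of the 9 genes. For Plk2 the FMTg mean exceeded the Tg mean by 957 normalised reads in kidney and by 127 in ovary, and for Eda2r by 737 and 561. Over the 62 p53 targets tested, kidney gained more reads than ovary for 48, and over all genes tested for 48.7%.

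The effect of the scale, the libraries and the pairing on the 9 calls was as follows. All 9 differences were above 0 in each of the 16 fits that left out 1 library. Plk2 kept its call in all 16, Gtse1 and Tnfrsf10b in 14, Eda2r in 12, 1700007K13Rik in 10, Inka2 and Psrc1 in 9, Mgmt in 6 and Trp53inp1 in 3. The number called was 1 without Tg Kidney replicate 2 or Tg Ovary replicate 3, 3 without Tg Kidney replicate 3, 4 without FMTg Kidney replicate 2 or 5, 5 without Tg Kidney replicate 1 or Tg Ovary replicate 1, and 19 without FMTg Ovary replicate 3. Without FMTg Kidney replicates 4 and 5 no gene was called, and the 9 differences were 1.49 to 2.89 with adjusted p of 0.0572 to 0.239. Without the 3 ovary libraries richest in acinar reads 28 genes were called, 8 of the 9 among them. When the mouse was entered as a block, 25 genes were called (0.154% of those tested), all 9 among them with adjusted p of 0.000663 to 0.00591. On read counts recovered from the deposited values and tested with limma-voom, only Plk2 was called (adjusted p = 0.0134).

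Mdm2, the targeted gene, and Cdkn1a, the arrest gene most often used to read p53 activity, showed the same direction and were not called for the difference. Mdm2 transcripts had 3781, 5696, 3672, 3499 and 3230 normalised reads in FMTg kidneys, against 918, 959 and 1040 in Tg kidneys. In ovary they had 1292, 2016, 2222, 1239 and 1213 in FMTg mice, against 977, 799 and 944 in Tg mice. Transcript levels of the targeted gene were thus higher in FMTg than in Tg libraries in both tissues, with no overlap. Counts over the whole gene do not show which part of it is deleted, so they do not check the deletion. The kidney response of 2.00 ± 0.21 was called and the ovary response of 0.77 ± 0.21 was not. The difference was 1.23 ± 0.30, with a 95% interval of 0.58 to 1.88 (limma, adjusted p = 0.452, and 0.0367 without the 3 ovary libraries richest in acinar reads). Its Tg level was alike in the 2 tissues, at a gap of 0.10, against 1.33 in FMTg mice.

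Cdkn1a had 1366, 2152, 1593, 2287 and 3064 normalised reads in FMTg kidneys, against 240, 210 and 281 in Tg kidneys. In ovary it had 500, 1090, 1610, 1505 and 1455 in FMTg mice, against 1055, 342 and 376 in Tg mice. The ovary groups overlapped, and the highest Tg ovary level was in replicate 1, the library richest in acinar reads. The difference was 1.88 ± 0.57 with all libraries (limma, adjusted p = 0.781) and 1.37 without that library. Trp53 itself had 176 to 250 normalised reads in FMTg kidneys and 250 to 251 in Tg kidneys, and 386 to 602 in FMTg ovaries and 481 to 517 in Tg ovaries, with a difference of -0.24 ± 0.21 and a 95% interval of -0.70 to 0.21.

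Because 6 mice gave both tissues, kidney and ovary could be compared within a mouse. For Mdm2 the kidney value minus the ovary value was 1.54, 1.50 and 0.72 in the 3 FMTg mice, against -0.09, 0.26 and 0.14 in the 3 Tg mice. For Cdkn1a it was 1.44, 0.98 and -0.02 in FMTg mice, against -2.11, -0.69 and -0.41 in Tg mice. All 3 FMTg mice lay above all 3 Tg mice for both genes. The means differed by 1.15 for Mdm2 and by 1.87 for Cdkn1a, each with p = 0.1 (exact permutation test over mice, two-sided), which is the smallest p that 3 against 3 mice can give. A fit of only these 12 libraries, which had also entered the choice of the 9 genes, called no gene, and their differences were then 1.35 to 3.13.

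The tissues were also set side by side in their own responses. In kidney 73 genes rose (0.449%) and 1 fell (0.00615%), the chemokine gene Ccl28. In ovary 29 rose (0.178%) and 7 fell (0.0431%). The ovary split was 18 and 9 with libraries centred on their median and 5 and 6 by limma-voom. The ovary count of 36 was also carried by single libraries, with 149 genes without FMTg Ovary replicate 3 and 4, 6 and 7 without FMTg Ovary replicates 2, 4 and 5. It was 11 without Tg Ovary replicate 1, 16 without Tg Ovary replicate 3, 15 without FMTg Ovary replicate 1 and 10 without Tg Kidney replicate 2, whose spread enters the shared error. In kidney the count of 74 was 49 without Tg Kidney replicate 1. In the fit of all 16 libraries, 9 genes rose in both, which is 12.3% of the kidney genes and 31.0% of the ovary genes. Of the 73 genes that rose in kidney, 69 had a fitted ovary response above 0, against 47.1% of all genes tested. The median of the 73 was 1.39 in kidney and 0.51 in ovary. Of the 29 genes that rose in ovary, 28 had a fitted kidney response above 0, against 42.1% of all genes tested. The median of the 29 was 0.49 in kidney and 1.35 in ovary. Each set was thus higher in the tissue it was chosen in, and the medians are no evidence of a stronger response in either.

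Apart from the 4 genes already described, the genes that rose in both tissues were Zfp365, Ano3, Dnajc9, Svop and Sesn2, named after their values were seen. Zfp365, a zinc-finger gene tied to genome stability, had 78.3 to 152 normalised reads in FMTg kidneys and 4.71 to 7.87 in Tg kidneys, and 91.9 to 188 in FMTg ovaries and 25.1 to 28.4 in Tg ovaries. Its difference was 1.03 with a 95% interval of 0.23 to 1.83 and was not called. For Sesn2, a stress-induced inhibitor of mTOR signalling, the difference was 0.07 with an interval of -0.47 to 0.62. For Dnajc9, a J-domain chaperone of histones, it was -0.13 with an interval of -0.69 to 0.44. Those intervals leave out differences of the size seen for Plk2 or Gtse1. The intervals were wider for the ion-channel family gene Ano3 (-1.51 to 0.86) and for the transporter-like gene Svop (-1.41 to 1.01).

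**Figure D2:**
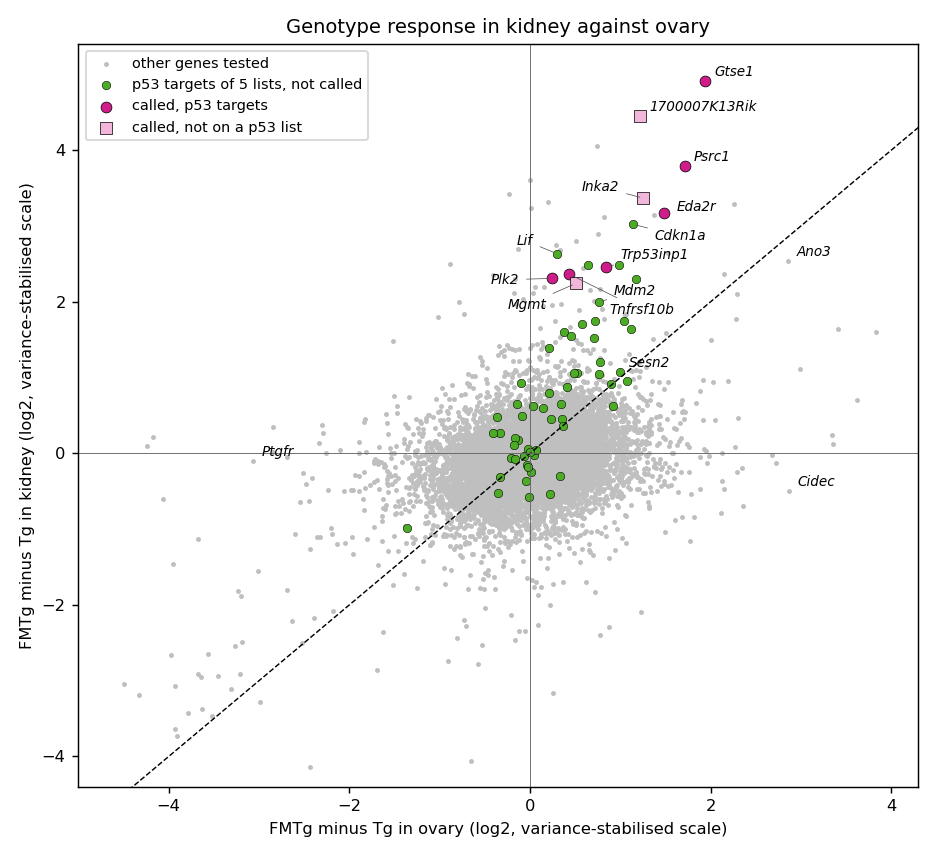
Response (FMTg minus Tg, log2) in kidney on the vertical axis against ovary on the horizontal axis for the 16258 genes tested, with the 62 p53 targets, the 9 called genes and the line of equal response marked. The called genes lie above the line, Sesn2 and Ano3 lie near it, Cidec lies far to the right and Ptgfr far to the left.

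The p53 element gave a view of sequence at these genes. The element is a pair of adjacent decamers of the p53 consensus, and a match here needed both decamer cores and at most 2 mismatches outside them. The element is its own reverse complement, so both strands were covered. Windows of 300 bases, from 250 before a gene start to 50 after it, were taken from RefSeq on GRCm38.p6. They covered 7 of the 9 called genes, 61 of the 73 genes that rose in kidney and 21 of the 29 that rose in ovary. A match was found in 1 of the 7, in 3 of the 61 (4.92%) and in 2 of the 21 (9.52%). Over all 27025 genes in the table, 51 had a match (0.189%). A match is a description of letters and no evidence of binding. The 3 matching stretches are printed to show how the arrest gene with the largest response, Gtse1, compares with Cdkn1a and with Zfp365, each 5′ to 3′ on the strand of the gene, with the 20 bases of the element in capitals and the 130 bases before it in lower case.
Cdkn1a, chr17:29090798-29090947, plus strand: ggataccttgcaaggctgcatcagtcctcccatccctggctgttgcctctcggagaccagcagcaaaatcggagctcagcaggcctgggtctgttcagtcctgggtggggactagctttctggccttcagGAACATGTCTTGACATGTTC
Gtse1, chr15:85859815-85859964, plus strand: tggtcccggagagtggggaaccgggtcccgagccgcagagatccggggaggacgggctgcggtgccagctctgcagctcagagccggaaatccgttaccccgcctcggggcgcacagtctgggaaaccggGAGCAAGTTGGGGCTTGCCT
Zfp365, chr10:67912706-67912855, minus strand: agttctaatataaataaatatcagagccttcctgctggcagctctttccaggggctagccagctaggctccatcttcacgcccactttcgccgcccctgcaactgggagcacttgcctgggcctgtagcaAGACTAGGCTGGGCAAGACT
The element began 51 bases before the RefSeq gene start in Cdkn1a, 1 base before it in Gtse1 and 63 bases before it in Zfp365. In Gtse1 the element thus ran past that start, and it lies within the gene span given above. Gtse1 had 2 windows, and 1 of them held the match. The element held 1 mismatch outside the cores in Cdkn1a and Gtse1 and 2 in Zfp365. The kidney-minus-ovary difference of these 3 genes was 1.88, 2.97 and 1.03, so genes with a matching element were found on both sides of the test's threshold.

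The wider p53 programme leaned the same way. Over the 62 tested targets the median response was 0.65 in kidney and 0.27 in ovary, and the median kidney-minus-ovary difference was 0.47, against -0.02 over all genes tested. In kidney 23 of the 62 rose and in ovary 5, against 0.449% and 0.178% of all genes tested. For the difference 6 were called, all stronger in kidney, against 0.0554% of all genes tested. The lists were put together with results of these data known, so these counts describe them and are not independent evidence of a direction.

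Of all genes tested, 0.449% rose in kidney and 0.178% in ovary. Among the 12 arrest targets the median response was 0.90 in kidney and 0.14 in ovary, and 5 rose in kidney and 3 in ovary. Among the 15 apoptosis targets the medians were 1.39 and 0.52, and 9 rose in kidney and 1 in ovary. Of other targets, picked after their values were seen, the pore-forming protein gene Bax rose in kidney by 1.39, with 0.21 in ovary, and its activator gene Bbc3 by 1.74, with 0.72 in ovary. The RNA-binding protein gene Zmat3 rose in kidney by 1.60, with 0.38 in ovary. None of these was called in ovary or for the difference. Aen, a nuclease that enhances apoptosis, had 1041, 1584, 1048, 1621 and 1388 normalised reads in FMTg kidneys, against 386, 387 and 416 in Tg kidneys. In ovary Aen had 630, 901, 830, 756 and 740 in FMTg mice, against 574, 440 and 529 in Tg mice. The groups did not overlap in either tissue, and the difference of 1.13 ± 0.23 was not called (limma, adjusted p = 0.193, and 0.0377 with the mouse as a block). Phlda3, which restrains Akt signalling, had a difference of 1.51 ± 0.36 with the same change of call (adjusted p = 0.422, and 0.0466 with the block).

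Among the 8 feedback targets the medians were 0.36 in kidney and 0.21 in ovary. In kidney 3 of them rose and in ovary 0, against 0.449% and 0.178% of all genes tested. Ccng1, a cyclin that recruits a phosphatase to Mdm2, had 13916, 16929, 14362, 34353 and 26485 normalised reads in FMTg kidneys, against 4191, 3808 and 4098 in Tg kidneys. FMTg Kidney replicates 4 and 5 were highest here, and the difference of 1.13 was 0.73 without them. Among the 16 targets of DNA repair and metabolism the medians were 0.15 and 0.03, with 2 that rose in kidney and 1 in ovary. The translesion polymerase gene Polk rose in kidney (1.53 ± 0.16), and its ovary response of 0.71 ± 0.16 was not called.

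Among the 11 tested secreted and membrane targets 4 rose in kidney and 0 in ovary, against 0.449% and 0.178% of all genes tested. Lif, a cytokine of the interleukin-6 family, had 65.8, 120, 83.8, 55.6 and 103 normalised reads in FMTg kidneys, against 10.2, 4.76 and 12.6 in Tg kidneys. In ovary Lif had 36.8, 53.4, 77.2, 26.6 and 46.6 in FMTg mice, against 45.2, 39.2 and 25.9 in Tg mice. FMTg ovaries overlapped the Tg ovaries, and the FMTg kidneys stood well apart from the Tg kidneys. The difference was 2.34 ± 0.47 (limma, adjusted p = 0.174, and 0.039 with the block). Gdf15, a circulating stress hormone, had 374, 916, 374, 708 and 662 normalised reads in FMTg kidneys, against 103, 102 and 86.6 in Tg kidneys. In ovary it had 54.5 to 103 in FMTg mice and 29.6 to 71.6 in Tg mice, and the difference of 1.84 ± 0.45 was not called (adjusted p = 0.452).

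The relation to the level in Tg mice was the second question. For the 9 called genes the Tg kidney mean minus the Tg ovary mean ran from -2.93 to -0.26, and the same gap in FMTg mice ran from -0.06 to 1.51. Over the 62 p53 targets, 24 had a higher FMTg mean in ovary and 42 a higher Tg mean in ovary, which is 67.7% of them, against 57.1% of all genes tested. Their median gap was 0.36 in FMTg mice and -0.54 in Tg mice, against -0.19 and -0.15 over all genes tested. Of the 73 genes that rose in kidney, 17 were higher in ovary in FMTg mice and 54 in Tg mice. Of the 29 that rose in ovary, 20 were higher in ovary in FMTg mice and 14 in Tg mice. In both sets the choice of genes by their response in a tissue moves these counts, so they are given as a description. The same holds for the gaps of the 9 called genes, which were chosen by the FMTg gap minus the Tg gap.

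**Figure D3:**
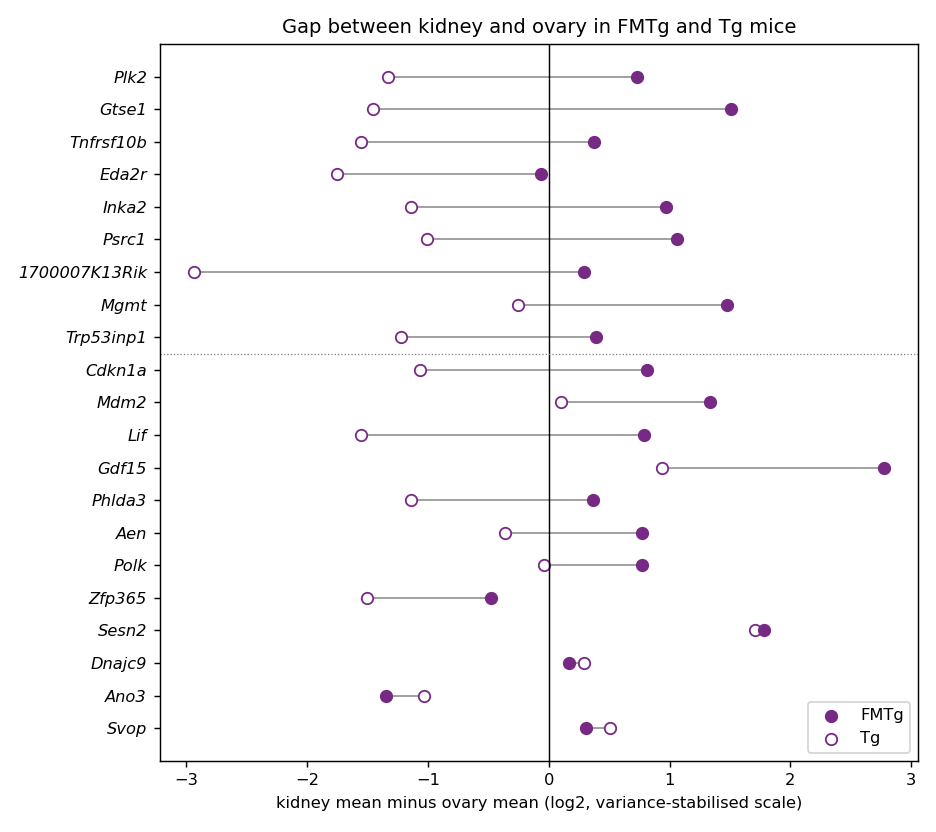
Kidney mean minus ovary mean (log2) in FMTg mice (filled) and Tg mice (open) for the 9 called genes above the dotted line and 12 other named genes below it. The called genes run from open circles left of 0 to filled circles right of 0 except for Eda2r at -0.06, while Sesn2, Dnajc9, Ano3 and Svop move little.

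Genes were put in classes by their Tg means, where detected means at least 1 above the value of a gene without reads. In the class detected in both tissues with ovary higher by over 1 there were 2920 genes, and 8 of the 9 called genes belonged to it. The class with Tg means within 1 held 10143 genes and 1 called gene. The class with kidney higher by over 1 held 2188 genes and no called gene, and no called gene was among the 195 genes detected in kidney only or the 793 detected in ovary only. The class as a whole did not follow its called genes. Its median difference was -0.15, against -0.01 in the class with like levels and 0.07 in the class with kidney higher. With the baseline from Tg replicates 1, 2 and 3 in turn, the class with kidney higher had medians of -0.0076, 0.130 and 0.207.

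Among the genes that rose in kidney, the 26 that were higher in Tg ovary had a median response of 2.48 in kidney and 0.82 in ovary. The 44 with like Tg levels had medians of 1.11 and 0.44. Among the p53 targets, the 23 with ovary higher had a median difference of 0.70, the 32 with like levels 0.37 and the 7 with kidney higher 0.07.

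Since the Tg libraries enter both the baseline and the response, the baseline was next taken from 1 Tg mouse and the response from the other 2, for each Tg mouse in turn. With 2 Tg mice left in the response, 0, 1 and 1 genes were called. The differences of the 9 genes were then 1.51 to 3.68, given as a description, since all 3 Tg mice had helped to choose them. The median difference of the p53 targets with ovary higher was then 0.51, 0.53 and 0.64, that of targets with like levels 0.45, 0.47 and 0.69, and that of targets with kidney higher -0.22, 0.16 and 0.25. The step between targets with ovary higher and those with like levels was thus small or turned round when the libraries were kept apart. The 6 to 9 targets with kidney higher had the lowest of the 3 medians for each Tg mouse.

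**Figure D4:**
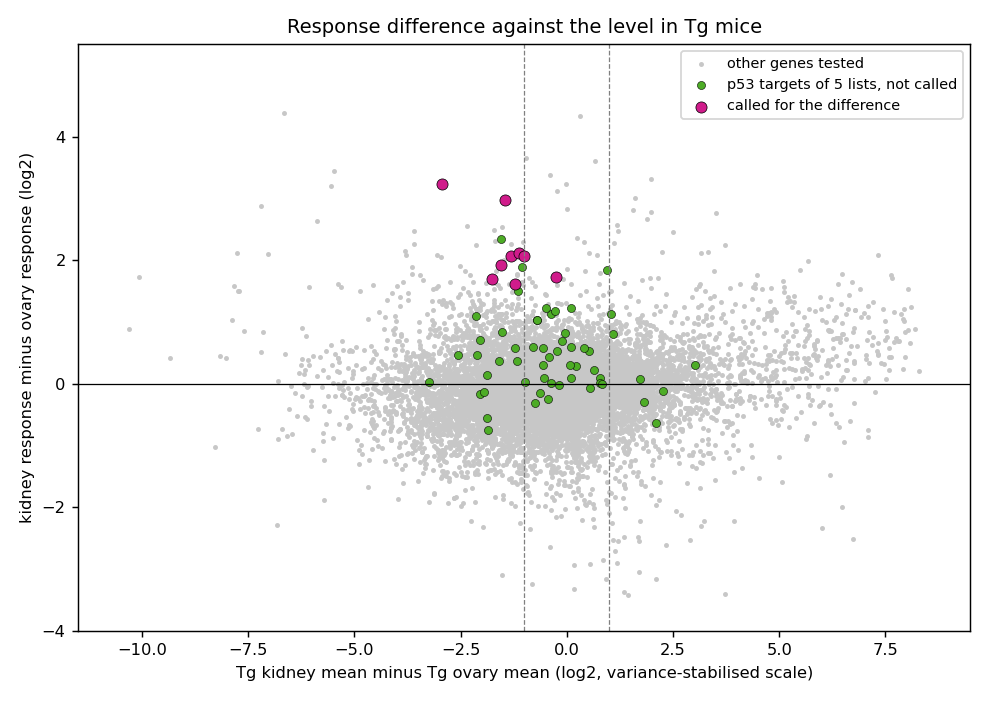
Kidney-minus-ovary difference of the response (log2) against the Tg kidney mean minus the Tg ovary mean (log2) for all genes tested, with p53 targets and the 9 called genes marked and dashed lines at the limits of like levels. The called genes lie at the upper left, between -2.93 and -0.26 on the horizontal axis, while the class they share has a median difference of -0.15.

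With the mouse as a block, 25 genes were called (0.154%), 24 of them stronger in kidney (0.148%) and 1 stronger in ovary. A fit of kidney minus ovary taken within each of the 6 mice that gave both tissues called no gene. Deviations of kidney and ovary from their group means correlated at 0.33 to 0.41 in the paired FMTg mice and at -0.19 to 0.04 in the Tg mice. Whether the calls added by the block come from pairing by mouse was not tested. The genes added by the block, picked after their values were seen, included Aen, Phlda3 and Lif above. Klhl26, a Kelch-family gene, had 618, 966, 609, 773 and 555 normalised reads in FMTg kidneys, against 240, 293 and 249 in Tg kidneys. Ovaries of FMTg mice had 483, 591, 523, 459 and 346, against 426, 503 and 497 in those of Tg mice. Its ovary response was near 0 with overlapping groups, and the difference of 1.39 was called with the block (adjusted p = 0.0146) and not without it (0.127). The clamp-loader subunit gene Rfc2, with 604 to 683 normalised reads in FMTg kidneys and 316 to 357 in Tg kidneys, had 294 to 477 in FMTg ovaries and 398 to 408 in Tg ovaries. Mreg, Spatc1, Rap2b, Ddias, Aaas, Abhd4, Siva1, Ddit4l and Dscaml1 likewise rose in kidney, and none of them was called in ovary. The ovary groups were nevertheless apart, with FMTg higher, for Ddias (119 to 280 normalised reads against 50.2 to 95.2 in Tg mice). They were also apart for Aaas (296 to 397 against 182 to 243) and Dscaml1 (27.5 to 34.4 against 11.3 to 24.3). For the others of these genes the ovary groups overlapped, and Spatc1 had at most 1 read in any ovary library. Ptgfr, also among the 15 genes added on the kidney side, fell in ovary.

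Epsti1, an interferon-inducible gene, was the one stronger in ovary under the block. It had 29.9, 25.1, 26.8, 23.4 and 24.8 normalised reads in FMTg kidneys, against 30.6, 36.5 and 33.1 in Tg kidneys. Its ovary levels were 111, 167, 256, 182 and 252 in FMTg mice, against 59, 80 and 69.4 in Tg mice. Groups were apart in both tissues and in opposite directions, and the ovary rise of 1.35 was called while the kidney value of -0.30 was not. The difference was -1.65 ± 0.34 (limma, adjusted p = 0.193, and 0.0466 with the block). The other genes with the smallest p on the ovary side were Map1a, Cidec, Hist1h1a and Xkr5, and none passed the test.

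In ovary, the gene lists described next held few called genes. All 25 mitosis genes had a fitted ovary response above 0, against 47.1% of all genes tested. Their median was 0.74 in ovary and -0.04 in kidney. The difference was below 0 for all 25, and none was called. Their summed share of reads was 0.0538% to 0.151% in FMTg ovaries and 0.0162% to 0.0751% in Tg ovaries, so the ranges overlapped. The lowest share was in Tg Ovary replicate 1, the library richest in acinar reads. Mki67, the proliferation marker, rose in ovary, with 2827, 1502, 1770, 1262 and 2714 normalised reads in FMTg mice, against 203, 992 and 274 in Tg mice. In kidney Mki67 had 46.6 to 123 in FMTg mice and 39.6 to 74 in Tg mice, and its difference of -1.84 ± 0.63 was not called (limma, adjusted p = 1). The linker histone genes Hist1h1a, Hist1h1c, Hist1h1d and Hist1h1e, which package newly made chromatin and were picked after their values were seen, rose in ovary by 1.94, 1.40, 1.91 and 1.84. The 22 DNA replication genes had medians of -0.03 in kidney and 0.29 in ovary, with none called in either. Granulosa genes had a median of 0.41 in ovary and oocyte genes one of 0.69. The reads of the 13 granulosa genes summed to 0.0830% to 0.266% of a library in FMTg ovaries and 0.0482% to 0.176% in Tg ovaries. These ranges overlapped, and the part of granulosa content in the response of the mitosis genes was not tested.

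The genes that fell in ovary were Ptgfr, Lipg, Sfrp4, Megf10, Kcnab3, Gm7298 and Gm2a. Ptgfr, the receptor for the luteolytic prostaglandin F, had 353, 217, 609, 114 and 113 normalised reads in FMTg ovaries, against 1290, 3375 and 1730 in Tg ovaries. In kidney it had 492 to 801 in FMTg mice and 632 to 792 in Tg mice. Only the ovary groups were apart, and the ovary response was -3.07 ± 0.45 (limma, adjusted p = 0.0143). The difference of 2.96 ± 0.63 was not called (adjusted p = 0.226, and 0.0487 with the block). Akr1c18, which breaks down progesterone in the corpus luteum, had 36.8, 22.4, 194, 42.3 and 82.4 normalised reads in FMTg ovaries, against 898, 6539 and 290 in Tg ovaries, and its ovary response of -4.25 ± 0.86 was not called (adjusted p = 0.0649). Of the 13 steroidogenic genes, 1 fell in ovary and none rose, against 0.0431% and 0.178% of all genes tested. Their median was -0.78 in ovary and -0.33 in kidney. The reads of these genes summed to 0.248% to 0.319% of a library in FMTg ovaries and 0.305% to 0.654% in Tg ovaries.

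Genes of other cell types moved as well. All 10 adipocyte genes had an ovary response above 0, against 47.1% of all genes tested. Their median was 1.97 in ovary and -0.29 in kidney, and none was called. Their summed share of reads was 0.114%, 0.140%, 0.0604%, 0.524% and 0.633% in FMTg ovaries, against 0.0295%, 0.0477% and 0.0660% in Tg ovaries. Cidec, a lipid-droplet protein, had 736, 803, 582, 4380 and 4212 normalised reads in FMTg ovaries, against 118, 219 and 280 in Tg ovaries, and 276 to 468 in FMTg kidneys, against 342 to 749 in Tg kidneys. FMTg Ovary replicates 4 and 5 led both, and the part of adipose tissue in the ovary responses was not tested. Acinar genes were lower in FMTg than in Tg libraries in both tissues by their medians of -2.88 in kidney and -3.55 in ovary, and none of the 20 was called. Their summed share was 0.00461% and 0.00359% in FMTg Kidney replicates 4 and 5. It was 0.0292% to 2.11% in the other FMTg kidneys and 0.162% to 0.673% in Tg kidneys. The ovary shares were 0.00729% and 0.00272% in FMTg replicates 4 and 5. They were 0.0841% to 5.78% in the other FMTg ovaries and 0.140% to 26.8% in Tg ovaries. In both tissues the shares of FMTg replicates 1 to 3 thus overlapped those of the Tg libraries. The proximal tubule genes had a median of 0.27 in kidney and -0.62 in ovary, with none called. In kidney their summed share was 4.51% and 4.34% in the 2 FMTg kidneys with Y-linked reads. It was 3.16% to 3.39% in the other FMTg kidneys and 3.26% to 3.51% in Tg kidneys. Among these genes Kap had 332635 and 272911 normalised reads in the 2 kidneys with Y-linked reads. Kap had 40860 to 69001 in the other FMTg kidneys and 47828 to 80556 in Tg kidneys. The summed share thus does not give the level of the other members.

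**Figure D5:**
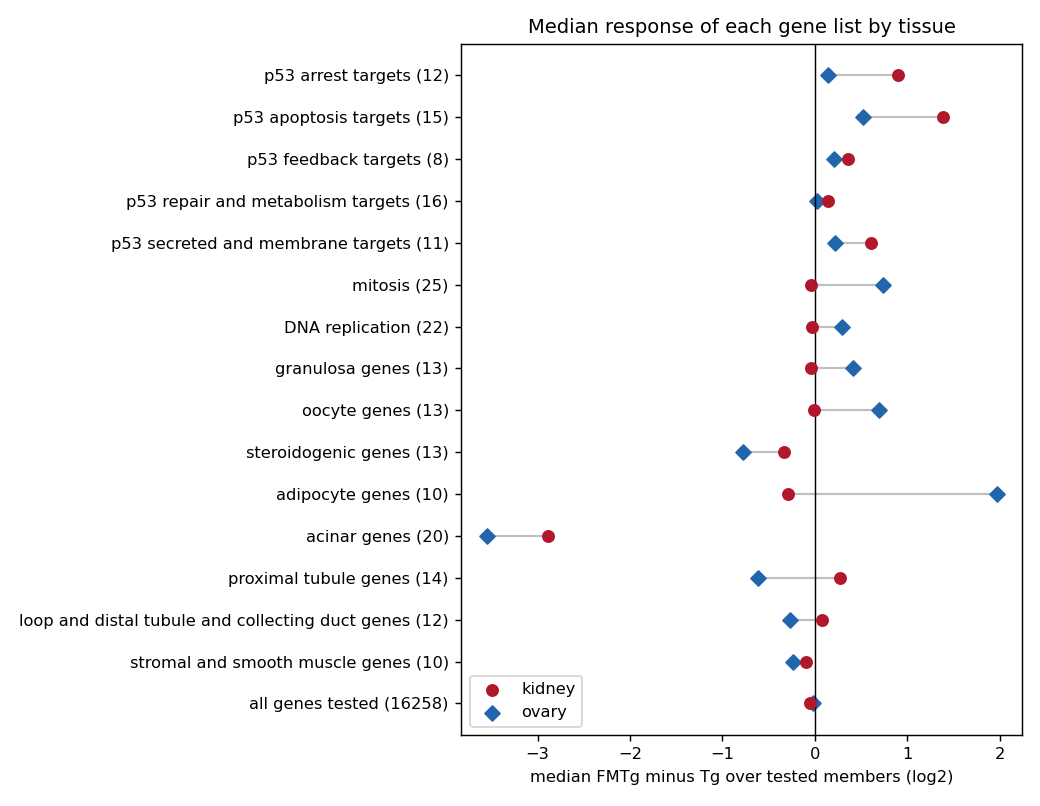
Median response (FMTg minus Tg, log2) of each gene list in kidney (circles) and ovary (diamonds), with the number of tested members in brackets and all genes tested at the bottom. Kidney lies right of ovary for the 5 lists of p53 targets, and ovary lies right of kidney for mitosis (0.74 and -0.04) and adipocyte genes (1.97 and -0.29).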

How the data were processed

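RNA was sequenced from flash-frozen tissue extracted with Trizol, per the labels' protocols. The submitters' processing notes name STAR 2.6.0b, DESeq2 and the GRCm38 build. The read counter, annotation and strand setting are not given in the sources used here, so reads of overlapping genes on opposite strands may be counted together. This touches Map1a, Polk, Sulf2, Plin4, Rfc2, Spatc1, Rap2b, Dscaml1, Ano3, Svop and Sesn2 among the genes named.

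The deposited file holds log2 values on a variance-stabilised scale for 18024 genes and 40 libraries, made by the authors over all tissues together. A gene without reads has the value 1.65 in every library, and log2 differences of genes with few reads are pulled toward 0. Inverting the transformation with 1 size factor per library gave whole reads for 100% of values (tolerance 0.01). Normalised reads, library totals and shares come from these. Gene IDs were matched to GENCODE M21 for 18003 genes. Depth ran from 8974235 to 27942108 reads over the 16 libraries. Values of genes with few reads are the least precise.

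Genes with a mean at least 1 above the lowest value over the 16 libraries were tested. A linear model with 1 mean per group was fitted with limma 3.58.1 in R 4.3.3 on the deposited values, with a mean-variance trend, two-sided tests and Benjamini-Hochberg adjustment over 16258 genes. The contrasts were the kidney response minus the ovary response and each response alone. Every adjusted p is from this fit unless another is named. The script was tested on simulated data.

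Mouse numbers in the labels show that same-numbered kidney and ovary libraries come from the same mouse, so they are paired by design. The deviations of kidney and ovary from their group means correlated across genes at 0.40, 0.33 and 0.41 in the 3 FMTg mice and at -0.04, 0.04 and -0.19 in the 3 Tg mice. The FMTg group means also held the mice that gave only kidney or only ovary. A shift of the paired FMTg mice against those mice in both tissues would enter the FMTg correlations too, and its part was not tested. The block fit used all 10 mice with an estimated correlation of 0.383 (limma with statmod 1.5.0). That estimate does not separate such a shift from a correlation within each mouse. Nothing states that mice were litter mates.

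Named genes were Mdm2, Trp53 and Cdkn1a, the called genes with the smallest p in each direction (up to 12, and the 5 with the smallest p where none was called), up to 8 called genes with like Tg levels, and, for each list described, at most the 4 members lowest in p. Predicted genes were left out, and other names are marked in the text. The members and lists were chosen with earlier results of these data known. Lists are described by counts and medians without a test. The p53 element was searched in RefSeq promoter windows (GRCm38.p6). Alternatives covered the filter, the block, the libraries used, the trend, library weights, centring, limma-voom on recovered reads, each library left out and the limits of the Tg classes. Dropping the 2 kidney libraries with Y-linked reads or the 3 ovary libraries richest in acinar reads was decided after the data were seen.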

Additional observations from a re-analysis of the deposited data

Results flagged for a closer look

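Of 120 groups of 5 FMTg libraries examined, 1 for each named gene and tissue, 7 held a library far from the other 4, and chance alone gives such a gap in about 1 in 20 groups. On the log2 scale FMTg Kidney replicate 2 had 12.48 for Mdm2, against 11.66 to 11.89 in the other FMTg kidneys, and 8.59 for Akr1c18, against 10.65 to 11.38. FMTg Kidney replicate 4 had 9.16 for Hsd17b7, against 8.52 to 8.69. FMTg Kidney replicate 1 had 13.72 for Slc5a12, against 13.01 to 13.21. FMTg Kidney replicate 5 had 7.91 for Dscaml1, against 6.63 to 6.97. FMTg Ovary replicate 1 had 2.31 for Spatc1, which stands for 1 read, against no reads (1.65) in the other FMTg ovaries.

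FMTg Ovary replicate 3 had 10.21 for the proximal tubule transporter Slc5a12, against 3.74 to 4.29 in the other FMTg ovaries. In that library the 14 proximal tubule genes took 0.172% of reads, against 0.0245% to 0.0819% in the other FMTg ovaries and 0.0246% to 0.0739% in Tg ovaries. The number of genes called for the difference was 19 without it.

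The response differed between kidney and ovary by limma's test of the difference for Plk2 (2.06), Gtse1 (2.97), Tnfrsf10b (1.93), Eda2r (1.69), Inka2 (2.11), Psrc1 (2.07), Mgmt (1.73), Trp53inp1 (1.62) and 1700007K13Rik (3.23).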

How the results depend on the processing

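The 9 calls of the kidney-minus-ovary difference depended on the libraries and on the test, while the sign of the 9 differences was the same in every fit run. With the mouse as a replicate block 25 genes were called and with library weights 41. With 1 model of all 40 libraries 3 were called and with limma-voom 1. With only the 6 mice that gave both tissues 0 were called, and with kidney minus ovary taken within each of those mice 0. Without the 2 kidney libraries with Y-linked reads 0 were called, and without the 3 ovary libraries richest in acinar reads 28. Leaving out each library gave 1 to 19, with 1 without Tg Kidney replicate 2 or Tg Ovary replicate 3. With 1 Tg mouse set aside for the baseline, 0, 1 and 1 were called. The fits without a filter, with a filter in each tissue, without the variance trend and with libraries centred on their median gave 8 or 9. At an unadjusted p below 0.05 the fits with 0 calls had 752 genes (6 mice), 831 (kidney minus ovary within those mice), 653 (without the 2 kidney libraries) and 376 (Tg replicate 1 set aside).

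In kidney, library weights gave 277 calls and leaving out each library 49 to 90, against 74. In ovary, library weights gave 100, no variance trend 20, the 6 mice 2, limma-voom 11 and leaving out each library 4 to 149, against 36; the count was 149 without FMTg Ovary replicate 3 and 4 without FMTg Ovary replicate 2. With the baseline from Tg replicate 2 or 3 the median difference moved to 0.31 and 0.37 for genes detected in kidney only and to -0.34 and -0.38 for genes detected in ovary only, and to -0.32 with replicate 3 for genes higher in ovary. For genes higher in kidney it was -0.0076, 0.130 and 0.207 with the baseline from Tg replicates 1, 2 and 3, against 0.07 with shared libraries. The median difference of the 62 p53 targets was 0.36 to 0.58 over all these fits.

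Differences near 0 turned sign for Sesn2 (-0.0666 with library weights, -0.0412 to 0.153 with each library left out), Dnajc9 (-0.22 to 0.0377 with each library left out), Ano3 (0.19 without the 3 ovary libraries) and Svop (0.26 without those, 0.13 without the 2 kidney libraries, -0.478 to 0.0139 with each library left out). The difference of Slc7a13 was far above 0 with all libraries and -0.20 without the 2 kidney libraries. In those 2 it had 11329 and 5658 normalised reads, against 7.77 to 19.6 in the other FMTg kidneys. The causes were not tested.

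With 3 Tg libraries per tissue the smallest difference called was 1.62 on the log2 scale, and genes with few reads are the least precise.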
